A study of Mus musculus with 12 samples.

Results

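The ZAR and ZFP36 genes are maternal messages for RNA-binding proteins, and 5 of them were followed among the 56691 genes of the count table: Zar1, Zar1l, Zfp36, Zfp36l1 and Zfp36l2. They were chosen by name, as the rows whose gene identifier carries one of these symbols, and each of the 5 had reads in all 12 libraries. The fourth ZFP36 gene of the mouse, Zfp36l3, was outside the list and had 0 counts in every library.

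The study asked how the maternal transcriptome changes when oocytes lack ALKBH5, an enzyme that removes the methyl mark m6A from RNA. Polyadenylated RNA was sequenced from wild-type (WT) and Alkbh5-/- (KO) mouse oocytes at 3 stages, with 2 libraries for each of the 6 groups. GV oocytes are arrested with an intact germinal vesicle, GVBD oocytes have resumed meiosis and lost it, and MII oocytes are at the second meiotic arrest. The mice were of C57BL/6 background. By the study's methods, the KO removed the start codon of the gene in every tissue, and females of both genotypes were primed with gonadotropin before puberty. Denuded GV oocytes of good morphology were pooled and cultured in M16 medium, and GVBD and MII samples were taken by time in culture. Whether the sequenced oocytes were scored for nucleus or polar body was not found, so a stage name in KO stands for a time. In the study's own culture tests most KO oocytes failed to lose the germinal vesicle, and far fewer KO than WT oocytes released a polar body. The libraries are separate pools, and how many animals stand behind each was not found, so the p-values do not measure a spread between animals. The edgeR p-values use the spread between libraries with information shared over all genes of a fit. Each comparison was fitted apart, so p-values and shares of genes called in WT and KO rest on different estimates of spread.

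Total counts, in units of 1e6, were 28.6 to 40.2 per library, of which 221927 to 838409 fell on ERCC sequences, synthetic RNAs added in equal amount to each tube. A spike-in scaled count below is a gene's count set to the mean ERCC total of the 12 libraries. A legend and the methods of the study give different numbers of oocytes per pool, so a scaled count refers to a pool and not to an oocyte. Endogenous counts per ERCC count ran from 47.0 to 127.7 and differed between replicates, with 73.3 and 47.0 in the WT MII libraries. Alkbh5 had 5355 to 10181 counts in the 6 WT libraries and 54 to 143 in the 6 KO libraries, and all 10 oocyte markers had reads in every library. Blood and macrophage markers differed strongly between libraries: their summed scaled count was 20047 to 144032 in WT GV replicate 2, both WT GVBD, both KO GV and KO MII replicate 1, and 463 to 1076 in the other 6 libraries. In the libraries with the high sums, most of these reads came from the haemoglobin genes Hbb-bs and Hba-a1. The 16 listed markers of cumulus and granulosa cells summed to 1489 to 2737 counts per library, most of them from Cyp19a1 (577 to 2225 counts). Amh was at 0 in 11 of the 12 libraries and Foxl2 at 0 in 10. Other markers of the list had reads in every library, among them Nr5a2 (292 to 480 counts) and Kitl (73 to 263 counts). KO MII replicate 2 had the fewest detected genes, 19837 against 21938 or more in the other libraries.

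Zar1 and Zar1l are expressed almost only in oocytes, where their proteins bind stored maternal messages and hold them in a stable, weakly translated form. ZFP36, ZFP36L1 and ZFP36L2 act in the opposite sense in somatic cells: they bind AU-rich elements in the 3′ UTR of short-lived messages and bring in the CCR4-NOT deadenylase that shortens the poly(A) tail. In the mouse, ZFP36L2 is needed in the oocyte for female fertility.

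All 5 genes lie on the minus strand of GRCm38 and code for protein. Zar1 (ENSMUSG00000063935) is at chr5:72576806-72581254 and Zar1l (ENSMUSG00000056586) at chr5:150507055-150518164. Zfp36 (ENSMUSG00000044786) is at chr7:28376784-28380253, Zfp36l1 (ENSMUSG00000021127) at chr12:80107754-80113013 and Zfp36l2 (ENSMUSG00000045817) at chr17:84183931-84187947. Sequences are shown to make visible how far the members of a family resemble each other, since reads are assigned by sequence. The stretch below is from the last part of the coding sequences of Zar1 and Zar1l in GENCODE M21. It was chosen as the ungapped in-frame window of its length with the highest identity, so it shows the most alike part of the 2 coding sequences. It covers 180 coding bases of each, across 3 exon junctions, with the 7 cysteine codons of each gene in capitals, and lies in the exons of chr5:72577395-72580286 for Zar1 and chr5:150507195-150517589 for Zar1l. These bases were 67.2% identical, and the longest run shared by the whole transcripts was 12 bases.
Zar1: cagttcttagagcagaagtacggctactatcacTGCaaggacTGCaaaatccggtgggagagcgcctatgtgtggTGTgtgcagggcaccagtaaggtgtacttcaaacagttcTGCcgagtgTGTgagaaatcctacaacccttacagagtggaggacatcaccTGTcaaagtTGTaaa
Zar1l: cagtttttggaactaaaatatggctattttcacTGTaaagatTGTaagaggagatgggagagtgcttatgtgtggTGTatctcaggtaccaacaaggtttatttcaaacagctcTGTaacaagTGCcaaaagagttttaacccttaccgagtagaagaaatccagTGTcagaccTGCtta

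ZFP36 proteins hold RNA with a pair of CCCH zinc fingers. The coding bases of the second finger are printed with the codons of its 3 cysteines and 1 histidine in capitals, from the exons at chr7:28378044-28378103, chr12:80110075-80110134 and chr17:84186554-84186613. Zfp36l1 and Zfp36l2 were 90% identical over these 60 bases, Zfp36 and Zfp36l2 75%, and Zfp36 and Zfp36l1 66.7%. The longest run shared by whole transcripts was 32 bases, between Zfp36l1 and Zfp36l2.
Zfp36: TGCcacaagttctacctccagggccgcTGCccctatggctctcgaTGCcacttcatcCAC
Zfp36l1: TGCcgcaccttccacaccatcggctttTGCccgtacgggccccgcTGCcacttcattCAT
Zfp36l2: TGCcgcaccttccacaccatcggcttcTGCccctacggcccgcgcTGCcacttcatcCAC

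The messages of the 3 ZFP36 genes themselves carried the letters that their proteins are known to bind. The heptamer TATTTAT, searched on the sense strand, occurred 3 times in each of their 3′ UTRs. Among 3′ UTRs within 25% of the same length, as many were found in 1.26% for Zfp36, 3.94% for Zfp36l1 and 3.87% for Zfp36l2. The heptamer was not found in the 146 bases of the Zar1 3′ UTR, and the 14 bases annotated for Zar1l are too short to bear on it. One site of each ZFP36 gene is shown, with the heptamer in capitals, at chr7:28376965-28376994, chr12:80108421-80108450 and chr17:84184913-84184942.
Zfp36: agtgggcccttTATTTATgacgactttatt
Zfp36l1: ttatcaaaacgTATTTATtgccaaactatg
Zfp36l2: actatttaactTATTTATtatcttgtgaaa

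The families differed by orders of magnitude in level. Per kilobase of transcript, the median spike-in scaled count over the 12 libraries was 41020 for Zar1l and 9461 for Zar1, against 22.8 for Zfp36l2, 18.5 for Zfp36 and 10.7 for Zfp36l1. Ranked by counts per kilobase among the genes with reads in a library, Zar1l stood between the 94.6th and 99.6th percentile and Zar1 between the 94.9th and 98.1st. Zfp36l2 ranked between 26.0 and 55.4, Zfp36 between 15.0 and 50.5 and Zfp36l1 between 7.10 and 48.6. The ZAR messages were thus measured from 2078 to 41792 reads per library, while the ZFP36 messages rested on 6 to 199 reads.

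Zar1l, the more abundant ZAR message before MII, showed the clearest stage pattern. In WT its spike-in scaled count was 49586 and 40001 in the GV libraries, 33424 and 24187 in the GVBD libraries and 1885 and 1277 in the MII libraries. In KO it was 53991 and 47852 in the GV libraries, 51728 and 42771 in the GVBD libraries and 4740 and 1488 in the MII libraries. Every MII library of either genotype lay far below every GV and GVBD library, while within a stage the genotypes overlapped at MII and at GV. At GVBD both KO libraries lay above both WT libraries. In the order of group means, KO GV, KO GVBD and WT GV came first and overlapped one another, WT GVBD stood apart below them, and KO MII and WT MII came last and overlapped.

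Zar1, its paralog, held its level into GVBD and was spread widely at MII. Its spike-in scaled count in WT was 14303 and 12372 in the GV libraries, 16555 and 11298 in the GVBD libraries and 8057 and 5033 in the MII libraries. The KO libraries gave 17242 and 14708 in the GV libraries, 19078 and 16385 in the GVBD libraries and 12737 and 2562 in the MII libraries. The WT MII libraries were below all libraries of the earlier stages, but KO MII replicate 1 lay within the range of WT GV and KO MII replicate 2 was the lowest of all. Each group overlapped its neighbour in the order of means, which ran from KO GVBD (17731) through KO GV, WT GVBD, WT GV and KO MII to WT MII (6545).

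**Figure D1:**
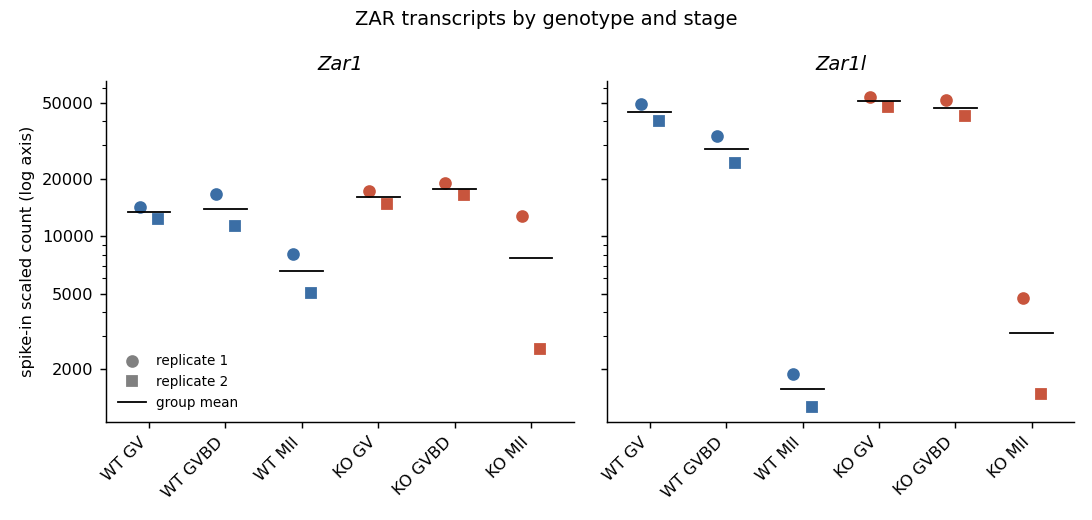
Spike-in scaled counts of Zar1 and Zar1l (log axis) in the 12 libraries, by genotype and stage; circles and squares are replicates 1 and 2 and lines are group means. Zar1l lies at 1277 to 4740 in the MII libraries and at 24187 to 53991 in all others, whereas Zar1 at MII spans 2562 to 12737.

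Comparing MII with GV, Zar1l fell in both genotypes. In WT the group mean at MII was 3.53% of that at GV, a log2 fold change of -4.82 with an SE of 0.52 (edgeR quasi-likelihood test, adjusted p = 3.42e-18). In KO it was 6.12%, a log2 fold change of -4.03 with an SE of 0.67 (edgeR, adjusted p = 0.0312). Lower counts at MII were the rule in these spike-in scaled data: 30.5% of the 18816 genes tested in WT were called lower, as were 3.28% of 18777 in KO, and the median log2 fold change of all genes was -1.06 in WT and -1.17 in KO. Relative to that median Zar1l was at -3.76 in WT and -2.86 in KO. With TMM scaling, which takes most genes as unchanged, the median moved to -0.14 in both genotypes and Zar1l still passed, with -3.91 in WT (edgeR, adjusted p = 0.00101) and -3.09 in KO (edgeR, adjusted p = 0.023). The KO call rests on 4 libraries and was lost without KO GV replicate 1 (edgeR, adjusted p = 0.103) or KO GV replicate 2 (edgeR, adjusted p = 0.0602), where the log2 fold change was -3.94 and -4.12.

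Most of that difference lay between GVBD and MII. Against GVBD, Zar1l at MII fell in both genotypes, with a log2 fold change of -4.19 in WT (SE 0.69, edgeR, adjusted p = 8.78e-08) and -3.92 in KO (SE 0.73, edgeR, adjusted p = 0.00211), where 27.1% of 19211 genes in WT and 7.12% of 17966 in KO were called lower. The KO call was lost without KO GVBD replicate 1 (edgeR, adjusted p = 0.119), KO GVBD replicate 2 (edgeR, adjusted p = 0.0602) or KO MII replicate 2 (edgeR, adjusted p = 0.0505). From GV to GVBD the values were -0.64 with an SE of 0.34 in WT (edgeR, adjusted p = 0.9999) and -0.11 with an SE of 0.26 in KO (edgeR, adjusted p = 0.954), and neither passed.

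Zar1 did not pass in any stage comparison of the main test. Its log2 fold change from GV to MII was -1.03 with an SE of 0.46 in WT (edgeR, adjusted p = 0.0789) and -1.06 with an SE of 0.71 in KO (edgeR, adjusted p = 0.379). These values lay 0.04 and 0.11 above the median of all genes, and with TMM scaling they were -0.12 and -0.21. From GV to MII in WT, Zar1 was called lower by DESeq2 (adjusted p = 0.0209) and without WT MII replicate 1 (edgeR, adjusted p = 0.0179), where 5482 of 18816 and 5328 of 20483 genes were called lower. In KO without KO MII replicate 1, Zar1 was called at -2.64 against GV (edgeR, adjusted p = 2.25e-07), where 11013 of 20437 genes were called lower and the median of all genes was -2.09. In the same way it was called at -2.79 against GVBD (edgeR, adjusted p = 0.0102), where 6307 of 19455 genes were called lower and the median was -1.73.

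The ratio of the paralogs within a library needs no scaling between libraries. Per Zar1 count, Zar1l had 3.47 and 3.23 counts in the WT GV libraries, 2.02 and 2.14 in the WT GVBD libraries and 0.234 and 0.254 in the WT MII libraries. In KO the ratio was 3.13 and 3.25 in the GV libraries, 2.71 and 2.61 in the GVBD libraries and 0.372 and 0.581 in the MII libraries. Replicates were close except at KO MII, and both KO libraries exceeded both WT libraries for GVBD and MII but not for GV. Zar1l thus gave 83.3% to 84.7% of the ZAR counts per kilobase in GV libraries, 76.3% to 81.2% in GVBD libraries and 27.2% to 48.1% in MII libraries.

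Over both genotypes, the log2 ratio differed by -3.28 between MII and GV, and the MII and GV libraries did not overlap in either genotype (exact two-sided permutation test within genotype, p = 0.0556, the smallest that 36 arrangements allow, adjusted over 4 ratio tests p = 0.111). Between genotypes the log2 ratio was 0.41 higher in KO as a mean over the 3 stages (exact two-sided permutation test within stage, p = 0.0463, adjusted p = 0.111), made up of -0.07 for GV, 0.36 for GVBD and 0.93 for MII. Neither ratio test passed after adjustment.

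**Figure D2:**
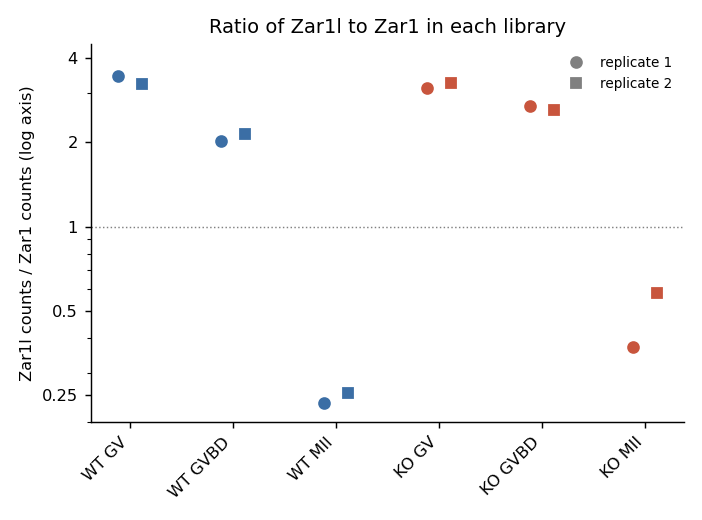
Counts of Zar1l divided by counts of Zar1 (log axis) in each of the 12 libraries; circles and squares are replicates 1 and 2, and the dotted line marks equal counts. The ratio is above 2 in all GV and GVBD libraries and between 0.234 and 0.581 in the 4 MII libraries.

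Neither ZAR gene was called between genotypes in the main test. Zar1l in KO against WT had a log2 fold change of 0.18 (SE 0.18) at GV, 0.71 (SE 0.49) at GVBD, and 0.98 (SE 0.81) for MII, with adjusted p-values of 0.637, 0.539 and 0.9999 (edgeR). The MII value rested on KO MII replicate 1, without which it was -0.09. Over all stages, with 6 libraries a genotype, Zar1l was 0.63 higher in KO with an SE of 0.28 (edgeR, unadjusted p = 0.0427, adjusted p = 0.248), where 1.26% of 22004 genes were called, and TMM scaling gave 0.32. Zar1 had values of 0.26, 0.35 and 0.22 in the same order of stages, of which the first and the last turned negative with TMM scaling, to -0.09 and -0.27. The median of all genes was itself above 0 in these comparisons, at 0.36, 0.23 and 0.30. The genotype difference in the change from GV to MII was 0.79 with an SE of 0.74 for Zar1l and -0.04 with an SE of 0.87 for Zar1 (edgeR, adjusted p = 0.99996 for both). In that interaction test 0% of 20807 genes were called by edgeR, with 1197 genes at an unadjusted p under 0.05.

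Zfp36l2, the ZFP36 gene known from oocytes, had the highest scaled count per kilobase of its family in 9 of the 12 libraries. In WT its spike-in scaled count was 103 and 251 in the GV libraries, 198 and 176 in the GVBD libraries and 50.2 and 45.8 in the MII libraries. In KO it was 248 and 122 in the GV libraries, 57.6 and 49.6 in the GVBD libraries and 51.0 and 20.8 in the MII libraries. The GV libraries of either genotype differed more than 2-fold between replicates, the WT libraries were low only at MII, and the KO libraries were low at GVBD and MII. Of the order of means, WT GVBD, KO GV and WT GV overlapped at the top and KO GVBD, WT MII and KO MII overlapped at the bottom.

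Zfp36, the founding member that encodes tristetraprolin, had lower counts. Its spike-in scaled count in WT was 49.8 and 133 in the GV libraries, 158 and 70.8 in the GVBD libraries and 53.4 and 31.8 in the MII libraries. The KO libraries gave 102 and 89.3 in the GV libraries, 31.2 and 13.2 in the GVBD libraries and 25.02 and 22.2 in the MII libraries. Both KO libraries were below both WT libraries for GVBD and, by less, for MII, and the WT replicates of GV and of GVBD were more than 2-fold apart.

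Zfp36l1 was the scarcest and most uneven. In WT its spike-in scaled count was 7.12 and 80.4 in the GV libraries, 117 and 89.4 in the GVBD libraries and 56.6 and 17.8 in the MII libraries. In KO it was 184 and 35.7 in the GV libraries, 13.2 and 18.7 in the GVBD libraries and 28.02 and 8.60 in the MII libraries. The lowest value, in WT GV replicate 1, came from 6 reads, and the replicates of 4 of the 6 groups differed more than 3-fold. Only GVBD separated the genotypes, with both KO libraries below both WT libraries.

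**Figure D3:**
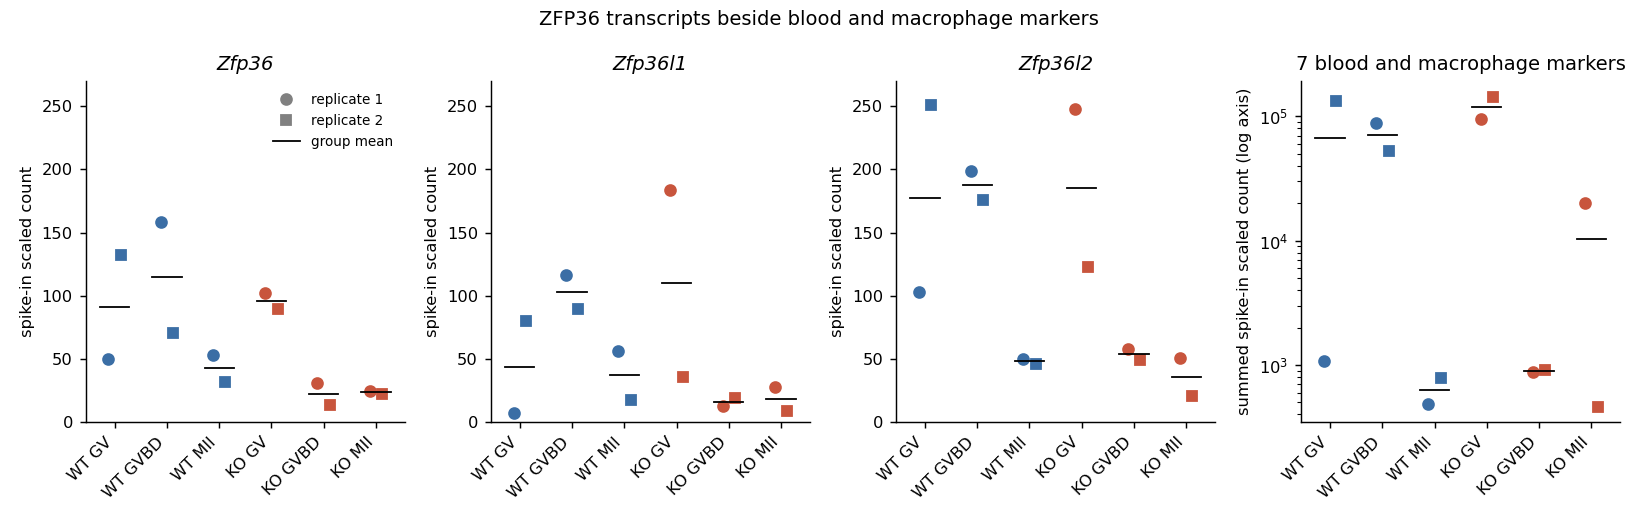
Spike-in scaled counts of Zfp36, Zfp36l1 and Zfp36l2 and the summed spike-in scaled count of 7 blood and macrophage markers (log axis) in the 12 libraries; circles and squares are replicates 1 and 2 and lines are group means. In KO GVBD the ZFP36 genes lie at 13.2 to 57.6 and the markers at 878 to 919, against 70.8 to 198 and 53013 to 87912 in WT GVBD.

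In KO against WT at GVBD the 3 ZFP36 genes had the largest differences of the 5 genes, and none passed. The log2 fold change was -2.67 with an SE of 0.81 for Zfp36l1 (edgeR, adjusted p = 0.0843), -2.37 with an SE of 0.80 for Zfp36 (edgeR, adjusted p = 0.131) and -1.81 with an SE of 0.63 for Zfp36l2 (edgeR, adjusted p = 0.148). Their unadjusted p-values were 0.00329, 0.00756 and 0.00973. Of 19462 genes tested, 2.54% were called in either direction and 1.73% lower. The direction held in all alternatives run for each of the 3 genes, leave-one-out included, and DESeq2 called 0 of them.

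Most blood and macrophage markers fell in the same comparison. Of the 7 markers, 4 were called lower in KO at GVBD, 6 were negative and 1 was positive. Their median log2 fold change was -2.91, with Hba-a1, a haemoglobin chain, at 42818 and 36348 counts in WT GVBD and 18 and 71 in KO GVBD. The macrophage markers were mixed: Lyz2 was called at -2.21, while Csf1r at -0.37 and Cd68 at 1.09 were not called. Ptprc, the leukocyte marker CD45, had 421 and 348 counts against 8 and 51. Immediate-early genes, which rise with ZFP36 genes on cell handling or stimulation, had a median of -1.39 over 12 genes at GVBD, with 0 called and 9 negative, beside 0.23 for all genes. Of the cumulus and granulosa cell markers, 11 were tested there and 1 was called, Fshr, the receptor for follicle-stimulating hormone, which was higher in KO at 3.38 (edgeR, adjusted p = 0.00897). In these bulk samples fewer cells of another type and less ZFP36 message per oocyte cannot be told apart. KO and WT GVBD libraries differed in both at once, and the part of blood cells in the result was not tested.

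Between genotypes no member passed in the other stages. Of the 5 genes, 0 passed at GV, where 0.0977% of 19452 genes were called, and 0 at MII, where 0.803% of 17566 were called, by edgeR and by DESeq2, and 0 of the 5 had an unadjusted p under 0.05 in edgeR at either stage. DESeq2 gave no adjusted p for Zfp36 and Zfp36l1 at GV. The largest value was 1.33 with an SE of 1.23 for Zfp36l1 at GV, and it turned to -0.29 without KO GV replicate 1. Zfp36 and Zfp36l2 were at 0.07 and 0.06 at GV. Both turned negative without WT GV replicate 1, the WT GV library with few blood reads, to -0.47 and -0.44, and with TMM scaling, to -0.27 and -0.32. They were also negative without KO GV replicate 1, a library with many blood reads, where Zfp36l2 was at -0.53. At MII, Zfp36l1, Zfp36 and Zfp36l2 had values of -1.02, -0.85 and -0.42 with SEs of 1.11 to 1.248. Of the 7 blood and macrophage markers, 2 were called higher in KO at MII, 4 were positive and 3 negative, with a median of 1.43. Hba-a1 was at 5.31 there, with 11485 and 11 counts in the KO MII libraries. The part of these markers in the ZFP36 values was not tested.

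Across stages in WT, Zfp36l2 was called lower at MII in the main test and the other ZFP36 genes did not pass. Of all genes tested, 30.5% were called lower from GV to MII and 27.1% from GVBD to MII. Zfp36l2 at MII was 27.1% of GV, a log2 fold change of -1.88 with an SE of 0.70 (edgeR, adjusted p = 0.0277), and 25.6% of GVBD, a log2 fold change of -1.96 with an SE of 0.76 (edgeR, adjusted p = 0.0371). Relative to the median of all genes these values were -0.82 and -0.85. Its call against GV was lost with TMM scaling, at -0.87 (edgeR, adjusted p = 0.277), and without any 1 of the 4 libraries (edgeR, adjusted p = 0.0841 to 0.61). Its call against GVBD was likewise lost with TMM scaling, at -0.99 (edgeR, adjusted p = 0.136), and without any 1 of the 4 libraries (edgeR, adjusted p = 0.0768 to 0.249). The largest effect came from WT GV replicate 2, without which the difference from GV was -1.10. This library held 94446 blood and macrophage marker reads, against 907 in WT GV replicate 1 and 607 and 1625 in the MII libraries. Of the 7 markers, 5 were called lower from GV to MII in WT and 6 from GVBD to MII, beside 30.5% and 27.1% of all genes. The part of these markers in the fall of Zfp36l2 was not tested.

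The 2 other ZFP36 genes had wide errors across stages in WT. Zfp36 was at -1.10 with an SE of 0.81 from GV to MII and Zfp36l1 at -0.23 with an SE of 0.94. The sign of the Zfp36l1 value turned without WT GV replicate 2, to 2.37, and with TMM scaling, to 0.65. From GVBD to MII, Zfp36 was at -1.42 with an SE of 0.78 (edgeR, adjusted p = 0.169). Zfp36l1 was at -1.47 there, with an SE of 0.80 (edgeR, adjusted p = 0.164), and at -2.52 without WT MII replicate 1. The median of all genes was -1.11 in that comparison. From GV to GVBD, Zfp36l1 was at 1.24 with an SE of 0.99 in WT (edgeR, adjusted p = 0.9999), and 0 of the 5 genes were called, where 0.0511% of 19566 genes were. Without WT GV replicate 2 the value for Zfp36l1 reached 3.83 and passed (edgeR, adjusted p = 0.039), a fit in which the GV group is the single library with 6 Zfp36l1 reads.

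In KO the ZFP36 genes had lower values from GVBD on, and none passed. From GV to GVBD the log2 fold change was -2.75 with an SE of 0.92 for Zfp36l1, -2.11 with an SE of 0.75 for Zfp36 and -1.78 with an SE of 0.57 for Zfp36l2, with unadjusted p-values of 0.0163, 0.0216 and 0.0129 and adjusted p-values of 0.511, 0.546 and 0.49 (edgeR). None passed, by edgeR or DESeq2, where 0.22% of 19064 genes were called. Most blood and macrophage markers fell in this comparison too, with 3 of 7 called lower, 6 negative, a median of -2.79 and Hba-a1 at -10.33. Cd68 and Csf1r, at -0.48 and -0.39, were not called. The immediate-early genes had 0 of 12 called, 11 negative and a median of -1.64, beside -0.15 for all genes. The part of these lists in the ZFP36 values was not tested. From GV to MII the values were -2.58, -2.01 and -2.36 (edgeR, adjusted p = 0.204, 0.226 and 0.159), and from GVBD to MII they were within 1 SE of 0. From GVBD to MII 2 of the 7 blood and macrophage markers were called higher, with Hba-a1 at 6.72. The other 5 were negative, and the median of the 7 was -0.24. In the fit without KO MII replicate 1, which compares KO GV with the 1 MII library that has few blood reads, all 5 genes were called lower than at GV, as were 11013 of the 20437 genes tested, and the median of all genes was -2.09. There Zfp36l1 reached -3.64, Zfp36l2 -3.14 and Zfp36 -2.10 (edgeR, adjusted p = 0.00443, 0.00129 and 0.0327), and Hba-a1 had 33087 and 64768 counts in the KO GV libraries against 11 in that MII library.

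**Figure D4:**
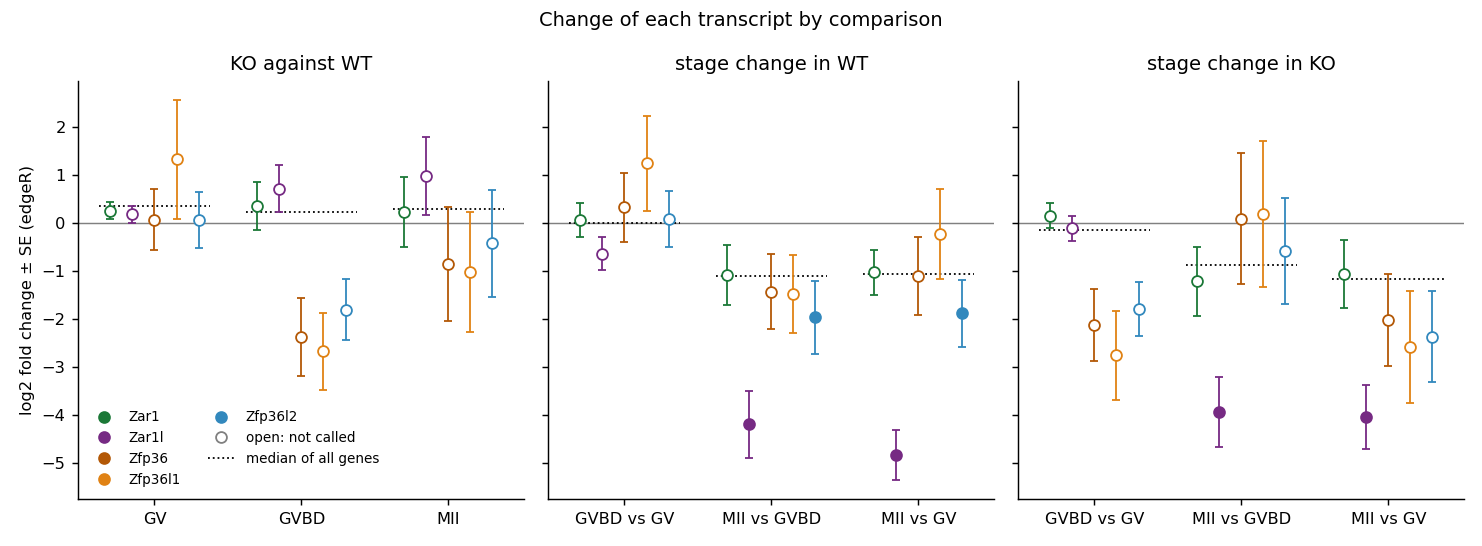
Log2 fold change with its SE (edgeR) of the 5 genes between genotypes at each stage and between stages in WT and in KO; filled points passed the threshold and dotted lines are medians of all genes tested. Zar1l at MII is the only gene filled in both genotypes, and Zfp36l2 is filled at MII in WT.

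Over all 3 stages, the ZFP36 genes had log2 fold changes between genotypes of -1.02 (SE 0.52, Zfp36), -0.80 (SE 0.83, Zfp36l1) and -0.71 (SE 0.43, Zfp36l2), with adjusted p-values of 0.302, 0.642 and 0.394 (edgeR). The genotype difference in the change from GV to MII was -2.35 with an SE of 1.74 for Zfp36l1, -0.92 with an SE of 1.14 for Zfp36 and -0.49 with an SE of 1.08 for Zfp36l2, and none passed (edgeR, adjusted p = 0.99996). The ratio of Zfp36l2 to Zfp36l1 counts ran from 0.888 to 13.5 over the libraries, with 13.5 in WT GV replicate 1. It differed by -0.10 on the log2 scale between genotypes (exact two-sided permutation test, p = 0.907, adjusted p = 0.907) and by -1.08 between MII and GV (exact two-sided permutation test, p = 0.278, adjusted p = 0.37).

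ZAR proteins store messages together with cap- and tail-binding partners, of which 10 were listed. From GV to MII in WT, 4 of the 10 fell and 0 rose, where 30.5% of all genes fell, with a median log2 fold change of -1.06 beside -1.06 for all genes. The called partners ran from Ybx2, the germ cell Y-box protein that packages maternal messages, at -3.01 to Eif4e, the cap-binding factor, at -1.54. From GVBD to MII in WT 3 of 10 fell, where 27.1% of all genes did, again from Ybx2 at -3.16 to Eif4e at -1.74, with a median of -1.34 beside -1.11. In KO 0 of 10 were called in either comparison by edgeR, where 3.28% and 7.12% of all genes were called lower. The medians were -1.31 and -1.38 beside -1.17 and -0.88. Between genotypes 0 of 10 were called at any stage by edgeR, where 0.0977%, 2.54% and 0.803% of all genes were. Their medians from GV to MII were 0.40, 0.44 and 0.61 beside 0.36, 0.23 and 0.30 for all genes.

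ZFP36 proteins act through deadenylation and decapping, and 20 genes of these steps were listed. From GV to MII in WT 4 of the 20 fell, from Cnot10 at -2.53 to Cnot1 at -1.23, both subunits of CCR4-NOT, and the list median was -0.38 beside -1.06 for all genes, of which 30.5% fell. From GVBD to MII in WT 3 of 20 fell, beside 27.1% of all genes, from Tob1, which recruits the deadenylase, at -3.02 to Cnot10 at -1.88. In KO, Cnot10 fell from GVBD to MII by 3.45 on the log2 scale and was the 1 gene of the 20 called, where 7.12% of all genes were called lower. From GV to MII 0 were called by edgeR, where 3.28% of all genes were called lower. Between genotypes 0 of 20 were called at any stage by edgeR, where 0.0977%, 2.54% and 0.803% of all genes were. Their medians were 0.39, 0.27 and 0.37 beside 0.36, 0.23 and 0.30 for all genes.

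The genes whose pattern was most like that of each member were sought over the 12 libraries by Pearson correlation of log2 CPM, the library-scaled counts after TMM, among 13273 genes whose mean count reached 50. These correlations share libraries and depth and are a description. Zar1l was closest to Timm17a (r = 0.997), a subunit of the inner mitochondrial membrane translocase, Rps6 (r = 0.995), a ribosomal protein, and Ppp1r11 (r = 0.995). For Zar1 they were Msto1 (r = 0.945), Lair1 (r = 0.938) and Letm1 (r = 0.921). Zfp36l2 was closest to Hipk1 (r = 0.962), Msn (r = 0.955) and Gtf2i (r = 0.945), and Zfp36 to Dtx3l (r = 0.893), Zc3hav1 (r = 0.882) and Cklf (r = 0.878). Rank correlations (Spearman) in the same order were 0.94, 0.90 and 0.92 for Zar1l and 0.72, 0.87 and 0.60 for Zar1. They were 0.97, 0.99 and 0.95 for Zfp36l2 and 0.88, 0.94 and 0.64 for Zfp36. The CPM of Zar1 was 153 in KO MII replicate 2 and 284 to 379 in the other libraries. Zfp36l1 was under the count minimum. Among the members the highest values were 0.82 between Zfp36 and Zfp36l2, 0.71 between Zfp36l1 and Zfp36l2, and 0.69 between Zfp36 and Zfp36l1, against 0.53 between Zar1 and Zar1l.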

How the data were processed

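The authors deposited raw, unnormalized read counts for genes and 92 ERCC sequences. Their methods name Cutadapt for trimming, Hisat2 for alignment to GRCm38 with the ERCC sequences, a filter for unique alignments, and StringTie. The submitters' processing notes give cutadapt 1.9, HISAT2 2.0.4 and StringTie 1.3.4d. The extraction text with the samples describes a bulk preparation and the methods a SMART-seq one, so the protocol is not settled, and neither strand use nor the counting step was found. PCR reads without molecular identifiers are not independent molecules. A pseudogene that overlaps Zar1l on the same strand had at most 2 counts, and 3 genes on the opposite strand overlap the ZFP36 genes. The one over Zfp36 had 0 counts, the one over Zfp36l2 at most 16, and the one over Zfp36l1 was not analysed here.

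Symbols matched 52073 of the 56691 gene identifiers, and positions and sequences come from GENCODE M21. Each comparison was fitted to its own groups with edgeR 4.0.16 (glmQLFit, glmQLFTest, R 4.3.3), with library sizes in proportion to summed ERCC counts and filterByExpr on total counts. A gene was called at an adjusted p (Benjamini-Hochberg over all tested genes) under 0.05 and an absolute log2 fold change of at least 1, two-sided. The SE is the log2 fold change over the square root of F. Ratios of 2 genes used counts plus 0.5 and exact permutation within strata. The fit was tested on simulated data. Alternatives were TMM and median-of-ratios scaling, no filter, DESeq2 1.42.0, a replicate block, 1 model of all 12 libraries, leaving out each library and, chosen after seeing the data, a filter on spike-in library sizes, which had been fitted first and was replaced to follow an earlier processing of these data. The members, the marker and partner lists and the tests were chosen with earlier results of these data known. The genes named are the members, the targeted gene, the highest and lowest called gene of each partner list, and the 3 most alike genes per member with a mean of at least 50 counts. Hba-a1, Hbb-bs, Ptprc, Lyz2, Cd68, Csf1r, Amh, Foxl2, Nr5a2 and Kitl were named after their values were seen.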

Additional observations from a re-analysis of the deposited data

Results flagged for a closer look

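Zfp36l1 moved in opposite directions from GV to GVBD in the genotypes: every WT GVBD library lay above every WT GV library and every KO GVBD library below every KO GV library. The log2 fold changes were 1.24 in WT and -2.75 in KO, neither passed (edgeR, adjusted p = 0.9999 and 0.511), and the difference between them was not tested. In WT the value for GV replicate 1 came from 6 reads. The scaled counts of WT GV replicate 2 and WT GVBD replicate 2 were close, at 80.4 and 89.4. Without WT GV replicate 1 the log2 fold change in WT was 0.36. Blood and macrophage marker reads came to 907 and 94446 for the WT GV libraries, 65557 and 59866 for WT GVBD, 52136 and 112900 for KO GV and 534 and 834 for KO GVBD, and their part in the pattern was not tested.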

How the results depend on the processing

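Of the member calls, those of Zar1l at MII in WT passed under every alternative run. The number of the 5 genes called from GV to MII in WT went from 2 to 1 with TMM scaling, with median-of-ratios scaling, with no filter on low counts and with all 12 libraries in one model. Zar1l remained and Zfp36l2 did not, and the same held from GVBD to MII in WT. Of all genes, 5821 of 18816 were called from GV to MII in the main test. In the order of the alternatives it was 4646 of 18816, 4779 of 18816, 5427 of 28352 and 4201 of 18816. From GVBD to MII it was 5339 of 19211 in the main test, then 4916 of 19211, 5021 of 19211, 4926 of 28779 and 4055 of 19211. DESeq2 called 3 from GV to MII in WT, Zar1 being added, where 5520 of 18816 genes were called. From GV to MII in KO the number went from 1 to 2 with all 12 libraries, Zfp36l2 being added (edgeR, adjusted p = 0.036), as the number of all genes called went from 616 to 3214. With each library left out in turn, the number called was 1 to 2 for MII against GV in WT, 1 to 2 for MII against GVBD in WT, 0 to 5 for MII against GV in KO, 0 to 2 for MII against GVBD in KO and 0 to 1 for GVBD against GV in WT; a group left with 1 library is assumed to vary like the other. The number of all genes called moved with these fits, from 39 to 11075 for MII against GV in KO and from 20 to 6334 for MII against GVBD in KO. The cause of these changes was not tested. The filter on spike-in library sizes, tried first, gave the same number of member calls in every comparison.

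Several values that had not been called changed sign. With TMM and median-of-ratios scaling, KO against WT at GV became -0.094 and -0.092 for Zar1, -0.17 and -0.17 for Zar1l, -0.27 and -0.27 for Zfp36, and -0.32 and -0.32 for Zfp36l2. At MII Zar1 became -0.27 and -0.28, and over all stages -0.056 and -0.085. GVBD against GV in KO became 0.018 and 0.010 for Zar1l, MII against GVBD in KO 0.25 and 0.27 for Zfp36l2, and MII against GV in WT 0.65 and 0.68 for Zfp36l1. Leaving out libraries in turn moved KO against WT at GV from -0.47 to 0.94 for Zfp36, -0.29 to 3.91 for Zfp36l1 and -0.53 to 0.84 for Zfp36l2. At MII it ran from -1.35 to 0.96 for Zar1, -0.087 to 1.58 for Zar1l, -2.10 to 0.032 for Zfp36l1 and -1.21 to 0.089 for Zfp36l2, all but the upper Zfp36l1 value set by the KO MII libraries. GVBD against GV ran from -0.24 to 0.31 for Zar1, -0.36 to 1.19 for Zfp36 and -0.42 to 0.86 for Zfp36l2 in WT, and from -0.25 to 0.023 for Zar1l in KO. MII against GVBD in KO ran from -0.40 to 0.83 for Zfp36 and -0.89 to 0.80 for Zfp36l1, and MII against GV in WT from -1.28 to 2.37 for Zfp36l1. Between genotypes, the difference in the change from GV to MII ran from -1.61 to 0.70 for Zar1, -0.27 to 1.40 for Zar1l and -1.27 to 0.11 for Zfp36l2, and KO against WT over all stages from -0.053 to 0.47 for Zar1. The log2 difference of the ratio of Zfp36l2 to Zfp36l1 between genotypes ran from -0.45 to 0.26.

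Same-numbered libraries did not deviate together: the correlations of their deviations over 13273 genes ran from -0.22 to 0.20, so the numbers were not taken as pairs. With the replicate block the number of members called was 3 for MII against GVBD in WT, where Zar1 was added (edgeR, adjusted p = 0.00928). There 6099 of 19211 genes were called. For MII against GV in WT the number was 2, with Zar1 added (edgeR, adjusted p = 0.0469) and Zfp36l2 lost (edgeR, adjusted p = 0.0753), where 4973 of 18816 genes were called. In the other comparisons the number did not change. There KO against WT at MII became -0.16 for Zar1, MII against GVBD in KO -0.018 for Zfp36l1, and MII against GV in WT 0.29 for Zfp36l1. The 6 to 199 reads per library limit the precision of the ZFP36 genes.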
